A study of Mus musculus with 4 samples.

Results

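The 4 Hox clusters of the mouse genome were described with 38 Hox genes, of which 10 lie in the Hoxa cluster, 10 in Hoxb, 9 in Hoxc and 9 in Hoxd. Their CpG sites were those within each gene, within 1 kb of either end of it and in the stretches between neighbouring genes of a cluster. Of the 1545651 CpG sites that had a value in all 4 libraries, 4689 lay in the clusters, and each of the 38 genes had at least 20 of them.

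The data were reduced representation bisulfite sequencing (RRBS) of 4 DNA samples, in which MspI cuts the genome at CCGG and the percent of reads with an unconverted cytosine gives the methylation level of a CpG site. R1 ESCs are a wild-type mouse embryonic stem cell line, and R1 neurons were derived from them by 2 days as embryoid bodies and, per the labels, 10 to 15 days in the neural medium Ndiff227, for which the methods of the study give a shorter upper limit. Tet/Tet ESCs are a line made from R1 in which tet-off constructs were knocked in at Dnmt1, the gene of the maintenance DNA methyltransferase. The line is described by the study as overexpressing DNMT1, was grown with puromycin and neomycin, and gave the Tet/Tet neurons by the same route. Each condition had 1 library of 1 line, so there was no spread between replicates, no test between conditions was made, and every difference below is that between 2 libraries. The ESC libraries carry one sequencing project number in the labels and the neuron libraries another, and the labels give different DNA extractions for ESCs and neurons, so cell type, project and extraction cannot be told apart. R1 and Tet/Tet libraries of a cell type share these. The deposited tables give percentages without read totals, so the depth behind a site is unknown, no interval could be given, and sites were weighted equally.

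Hox genes encode homeodomain transcription factors that give cells their position along the head to tail axis. Their order within a cluster follows the order of their expression along the body, from position 1 (anterior, hindbrain) to position 13 (posterior, tail and distal limb), and genes with the same number in different clusters are paralogues. In ESCs the clusters are known as broad CpG-rich domains that are held silent by Polycomb proteins and kept largely free of DNA methylation. The lengths and sequence of the clusters set the ground for the values. Hoxa spans chr6:52161417-52261880 in mm10, Hoxb chr11:96193316-96369256, Hoxc chr15:102920103-103037852 and Hoxd chr2:74667310-74766142, with 24, 22, 17 and 17 CpG islands.

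Across all shared sites of the genome the mean level was 26.8% and 28.1% in R1 and Tet/Tet ESCs and 53.3% and 10.9% in R1 and Tet/Tet neurons. The Tet/Tet neuron library thus stood below the other libraries in the genome as a whole, and what sets it apart was not tested. As a check of the labels, the sites within 1 kb of the start of Pou5f1, a pluripotency gene, were at 1.90% and 8.91% in R1 and Tet/Tet ESCs, and at 36.1% and 5.44% in R1 and Tet/Tet neurons (15 sites). Those of Nanog were at 4.22%, 4.56%, 27.8% and 7.37% (3 sites), and those of Dppa3 at 39.1%, 43.6%, 91.4% and 13.2% (8 sites), while Zfp42 and Tdgf1 had no shared site. At all 3 starts R1 neurons were above the other libraries. Tet/Tet neurons were below Tet/Tet ESCs at Pou5f1 and Dppa3 and above them only at Nanog. The check therefore does not speak for the label of the Tet/Tet neurons. No expression was measured, so marker transcripts of neurons were not checked.

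Stretches of sequence are shown first, as examples of island-free stretches that were methylated in R1 neurons and of low CpG islands. For each cluster the stretch of at most 200 bp with the largest difference between R1 and Tet/Tet neurons was taken, among stretches with at least 8 shared sites outside annotated UTRs. They were chosen for that difference, so their values describe the choice and test nothing. The plus strand of GRCm38 is printed, with CG in capitals at the CpG sites that had a value in all 4 libraries. In Hoxa it lay at chr6:52200332-52200530 in an exon of a retained-intron transcript of Hoxa3, in Hoxb at chr11:96248793-96248951 in the pseudogene Gm11539, in Hoxc at chr15:102945671-102945826 in the long non-coding RNA gene Hotair, and in Hoxd at chr2:74675924-74676029 in the coding sequence of Hoxd12.
Hoxa, in Hoxa3: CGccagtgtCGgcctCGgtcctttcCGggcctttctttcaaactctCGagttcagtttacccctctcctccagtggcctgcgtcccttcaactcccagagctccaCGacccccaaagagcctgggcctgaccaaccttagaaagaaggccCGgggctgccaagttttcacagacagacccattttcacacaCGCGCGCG
Hoxb, in Gm11539: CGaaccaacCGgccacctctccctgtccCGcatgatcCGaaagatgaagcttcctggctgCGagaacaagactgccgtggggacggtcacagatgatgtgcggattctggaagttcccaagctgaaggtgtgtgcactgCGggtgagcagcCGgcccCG
Hoxc, in Hotair: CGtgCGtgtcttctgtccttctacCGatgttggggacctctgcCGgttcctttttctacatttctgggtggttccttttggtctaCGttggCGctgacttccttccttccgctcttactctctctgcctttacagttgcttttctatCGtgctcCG
Hoxd, in Hoxd12: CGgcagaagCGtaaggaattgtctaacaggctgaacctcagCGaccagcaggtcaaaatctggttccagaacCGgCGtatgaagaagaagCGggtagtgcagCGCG
None of the shared sites of these stretches lay in a CpG island. The 8 sites of the Hotair stretch averaged 35.2% and 29.6% in R1 and Tet/Tet ESCs and 89.5% and 4.63% in R1 and Tet/Tet neurons. The 8 sites in Gm11539, which is 22506 bp from Hoxb9, averaged 30.8%, 37.9%, 93.9% and 11.7% in the same order. The 8 sites in Hoxd12 averaged 21.7%, 29.6%, 73.5% and 11.6%. In the Hoxa3 stretch the 11 sites averaged 15.7%, 7.28%, 47.7% and 4.68%. R1 neurons were highest and Tet/Tet neurons lowest in all 4 stretches, with both ESC libraries between them.

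For contrast, the island stretch with the most shared sites, lowest in R1 neurons, is given for 3 of the clusters, from the coding sequences of Hoxa13 (chr6:52260309-52260505), Hoxb9 (chr11:96271718-96271916) and Hoxc9 (chr15:102981910-102982109).
Hoxa13: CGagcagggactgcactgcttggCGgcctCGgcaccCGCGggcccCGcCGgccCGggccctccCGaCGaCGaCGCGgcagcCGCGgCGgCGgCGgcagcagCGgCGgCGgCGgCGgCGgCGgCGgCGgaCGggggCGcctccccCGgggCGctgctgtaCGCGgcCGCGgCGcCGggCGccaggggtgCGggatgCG
Hoxb9: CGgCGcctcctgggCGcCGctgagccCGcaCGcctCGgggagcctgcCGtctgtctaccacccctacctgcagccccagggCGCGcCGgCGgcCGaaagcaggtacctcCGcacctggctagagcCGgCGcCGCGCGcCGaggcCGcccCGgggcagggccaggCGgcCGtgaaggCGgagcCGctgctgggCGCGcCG
Hoxc9: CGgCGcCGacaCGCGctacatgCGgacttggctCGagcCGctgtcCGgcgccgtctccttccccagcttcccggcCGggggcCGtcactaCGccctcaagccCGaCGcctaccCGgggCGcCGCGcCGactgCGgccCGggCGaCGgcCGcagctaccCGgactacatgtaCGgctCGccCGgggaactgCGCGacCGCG
The Hoxa13 stretch, with 40 shared sites, averaged 1.48% and 1.33% in R1 and Tet/Tet ESCs and 1.66% and 1.56% in R1 and Tet/Tet neurons. The 29 sites of Hoxb9 averaged 2.09%, 1.76%, 2.73% and 1.94%, and the 32 sites of Hoxc9 averaged 2.39%, 1.16%, 6.17% and 2.37%. These 3 island stretches were under 7% in every library, and the 4 stretches outside islands ranged from 47.7% to 93.9% in R1 neurons. Values in R1 neurons entered the choice of both kinds of stretch, so the contrast describes the choice. Not all islands were low in R1 neurons, with 48.4% for an island of Hoxd12 and 37.97% for one of Hoxb1.

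Over whole clusters, methylation was low in every library and highest in R1 neurons. The Hoxb cluster had the highest mean, with 8.77% and 7.40% in R1 and Tet/Tet ESCs and 18.2% and 4.41% in R1 and Tet/Tet neurons (1228 sites). Hoxc followed with 7.61%, 6.41%, 14.9% and 4.01% (977 sites), and Hoxd with 6.65%, 5.13%, 13.3% and 3.52% (1247 sites). Hoxa had the lowest, with 4.95%, 4.10%, 9.77% and 3.33% (1237 sites). The order Hoxb, Hoxc, Hoxd, Hoxa was the same in each of the 4 libraries. It also matched the density of CpGs to some extent, since the observed over expected CpG ratio was 0.348 in Hoxb, 0.356 in Hoxc, 0.464 in Hoxd and 0.481 in Hoxa. Without an error for any of these means, differences of a few percentage points between clusters cannot be set against a spread. The 100 kb beyond either edge were higher in the R1 libraries, with 7.68% to 35.7% in R1 ESCs and 14.4% to 78.2% in R1 neurons over the 8 flanks. In Tet/Tet neurons the flank beyond Hoxd13 was at 2.75%, below the 3.52% of its cluster. The lowest flanks were those of Hoxd, at 14.4% and 19.1% in R1 neurons, and the highest was one of Hoxb, at 78.2%.

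**Figure D1:**
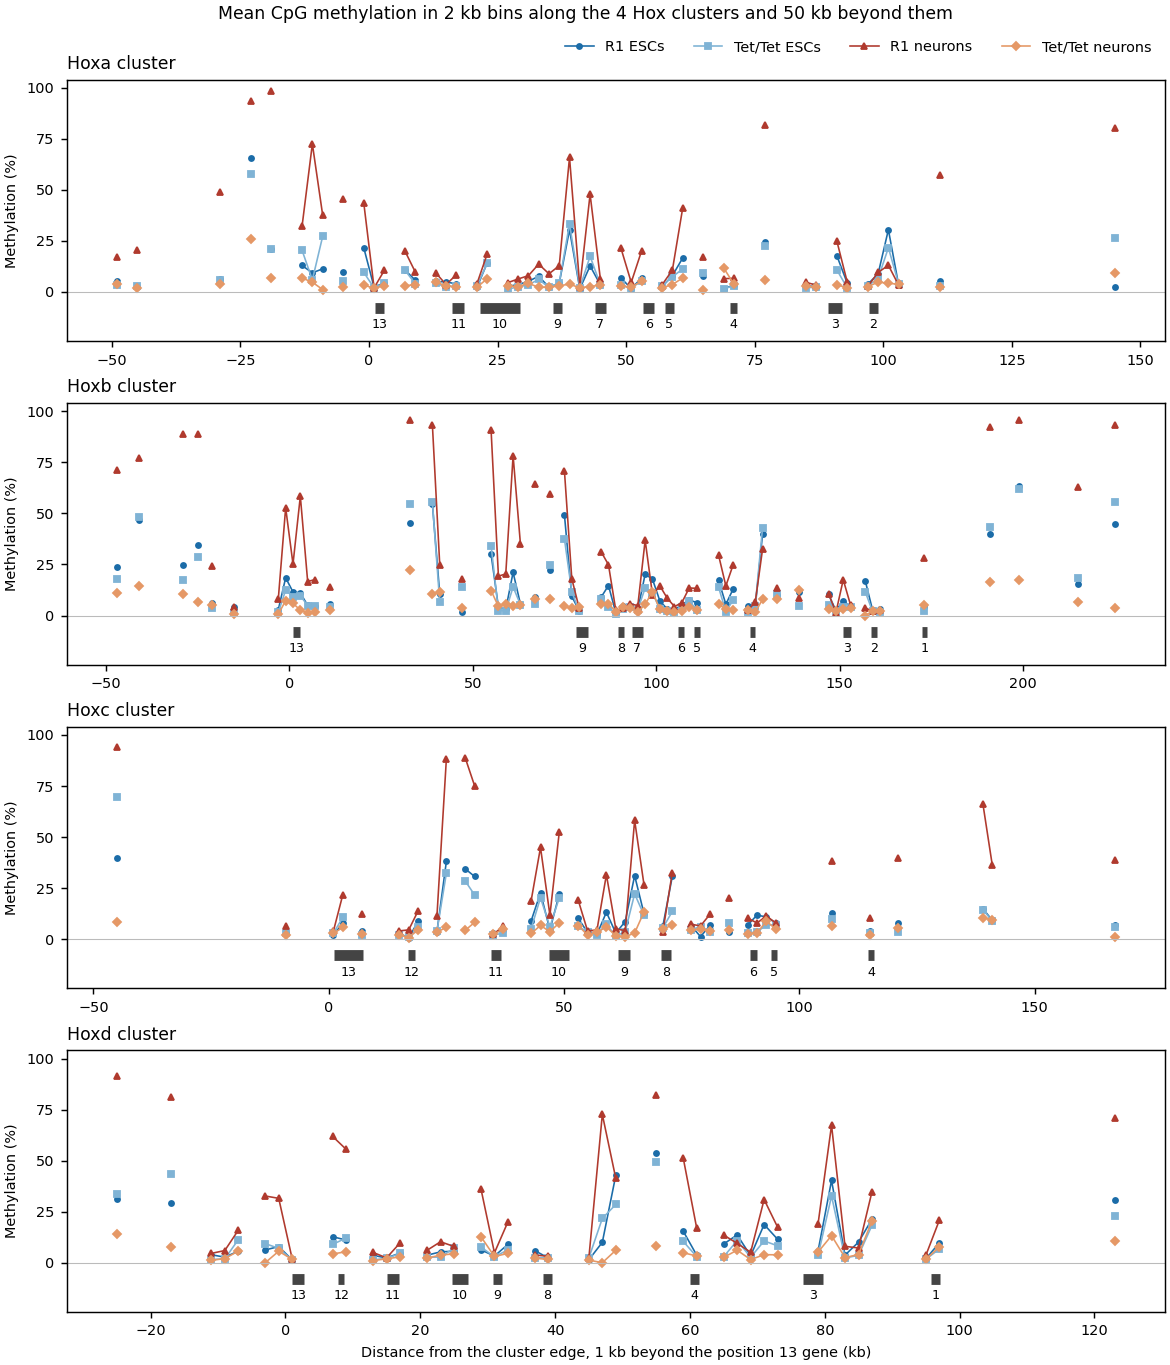
Mean methylation (percent, vertical axis) of CpG sites listed in all 4 libraries, in 2 kb bins with at least 5 sites, against the distance in kb from the edge of each cluster at its position 13 gene. Dark bars mark the coding span of each gene with its paralogue number, and lines are broken where a bin had too few sites. R1 neurons stand above the other libraries in separate peaks within and outside the clusters, while Tet/Tet neurons stay low along all 4 clusters.

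CpG islands, dense stretches of CpGs that are usually free of methylation at gene starts, held most of the sites. Over the 2862 cluster sites inside islands the mean was 3.54% and 2.77% in R1 and Tet/Tet ESCs and 5.84% and 2.94% in R1 and Tet/Tet neurons. Islands of the whole genome were at 4.07%, 4.22%, 10.6% and 3.85%. Outside islands the 1827 cluster sites were at 12.3%, 10.3%, 26.7% and 5.17%, against 41.4%, 43.5%, 81.0% and 15.5% for such sites of the genome. Outside islands the 4 clusters were below the genome in every library. Inside islands the mean over all clusters was below that of the genome, but Hoxb islands in R1 ESCs (4.39%) were not, and the median over island sites in R1 neurons was higher in the clusters (1.96%) than in the genome (1.32%). Of 74 islands with at least 5 shared sites, 71 and 72 were under 10% in R1 and Tet/Tet ESCs, and 60 and 73 in R1 and Tet/Tet neurons.

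**Figure D2:**
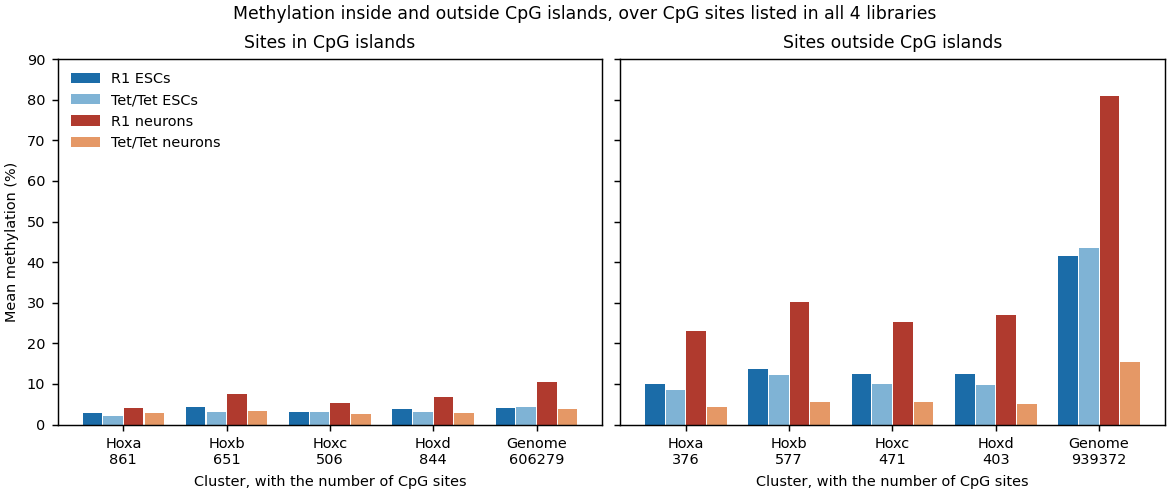
Mean methylation (percent, bars from 0) of CpG sites inside and outside CpG islands for each Hox cluster and for all shared sites of the genome, by library, with the number of sites under each group. Outside islands the R1 neuron bars of the clusters reach 23.0% to 30.2%, against 81.0% for the genome.

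Within the clusters, R1 neurons differed most between kinds of sequence. Coding sequence of the members was at 3.70% and 2.95% in R1 and Tet/Tet ESCs and 8.50% and 2.68% in R1 and Tet/Tet neurons (1684 sites). Sites within 1 kb of a gene start were at 4.06%, 3.55%, 7.73% and 3.33% (1790 sites). Introns were at 8.32%, 6.61%, 14.9% and 4.73% (1201 sites). The stretches between genes, beyond 1 kb of any of them, were highest over all clusters at 12.1%, 10.4%, 27.6% and 4.82% (753 sites, 379 of them in Hoxb). In R1 neurons this held for Hoxb and Hoxc, while in Hoxa and Hoxd the introns were higher (12.6% against 11.2%, and 16.6% against 10.6%). In the last library the 4 kinds of sequence lay within 2.68% to 4.82%.

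Level by gene was taken as the mean over a gene and 1 kb on either side. The median over the 38 genes was 5.10% and 4.80% in R1 and Tet/Tet ESCs and 9.37% and 3.87% in R1 and Tet/Tet neurons. Over all 11954 protein-coding genes with at least 20 shared sites the medians were 14.4%, 15.1%, 35.2% and 7.59%. In R1 neurons 37 of the 38 Hox genes were below the median of all genes. Of the Hox genes, 34 and 36 were under 10% in R1 and Tet/Tet ESCs, and 21 and 38 in R1 and Tet/Tet neurons. A level of 25% or more was found for 5 of the 38 genes in R1 neurons, where 64.2% of all genes had one. The 5 genes were Hoxd12, Hoxb1, Hoxb13, Hoxd4 and Hoxc4.

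**Figure D3:**
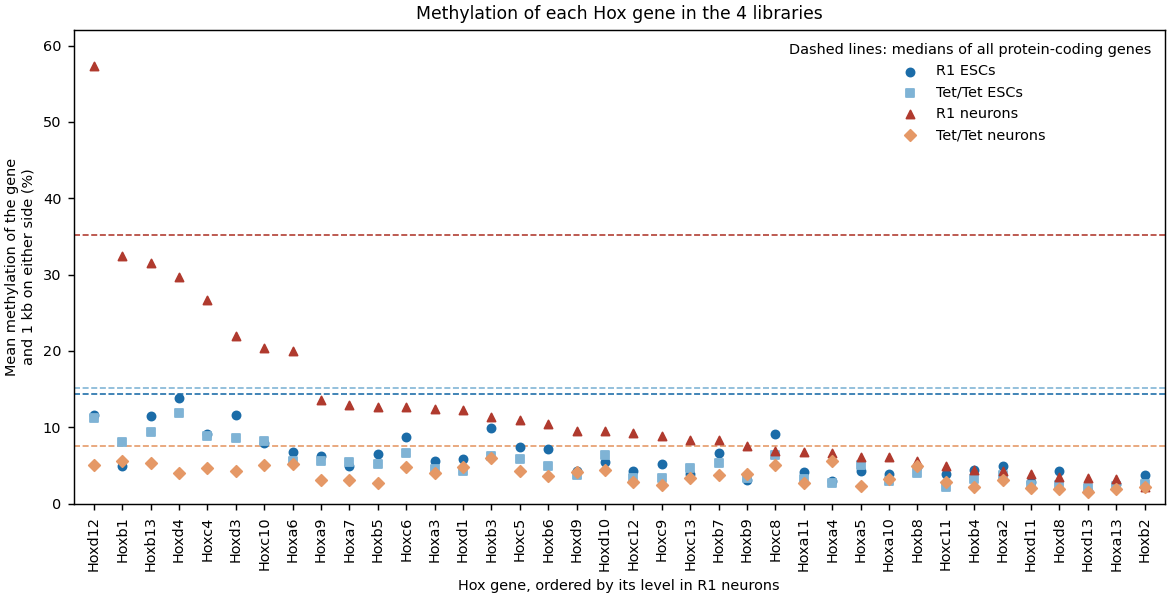
Mean methylation (percent) of each of the 38 Hox genes with 1 kb on either side in the 4 libraries, 1 point per library, ordered by the level in R1 neurons. Dashed lines are the medians of all protein-coding genes in each library. Hoxd12 at 57.3% is the only Hox gene above the R1 neuron median of 35.2%.

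Hoxd12 (chr2:74675013-74677705, plus strand), a posterior gene with a role in the limb, was the most methylated Hox gene in R1 neurons. Its 58 sites averaged 11.6% and 11.2% in R1 and Tet/Tet ESCs, then 57.3% (SD over sites 18.2) and 5.08% in R1 and Tet/Tet neurons. At each of the 58 sites R1 neurons were above all 3 other libraries, and 39 sites were at 50% or more. The sites ranged from 18.3% to 100% in R1 neurons and from 0% to 25% in Tet/Tet neurons. Its 41 coding sites gave nearly the same means, with 10.1%, 10.7%, 54.1% and 4.97%. A CpG island within the gene, with 20 shared sites, was at 6.28%, 5.29%, 48.4% and 3.24%, the highest island of the 4 clusters in R1 neurons. Hoxd12 was above 74.1% of all protein-coding genes in R1 neurons.

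Its neighbours on either side were low. Hoxd13 (chr2:74668310-74671599), which patterns the digits, averaged 1.62% and 2.00% in R1 and Tet/Tet ESCs and 3.37% and 1.57% in R1 and Tet/Tet neurons over 77 sites. Hoxd11, another posterior limb gene, averaged 2.84%, 2.39%, 3.84% and 2.01% over 220 sites. Hoxd12 was thus bounded on both sides by genes under 4% in R1 neurons. Hoxd12 is also the gene in which the printed Hoxd stretch lies.

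**Figure D4:**
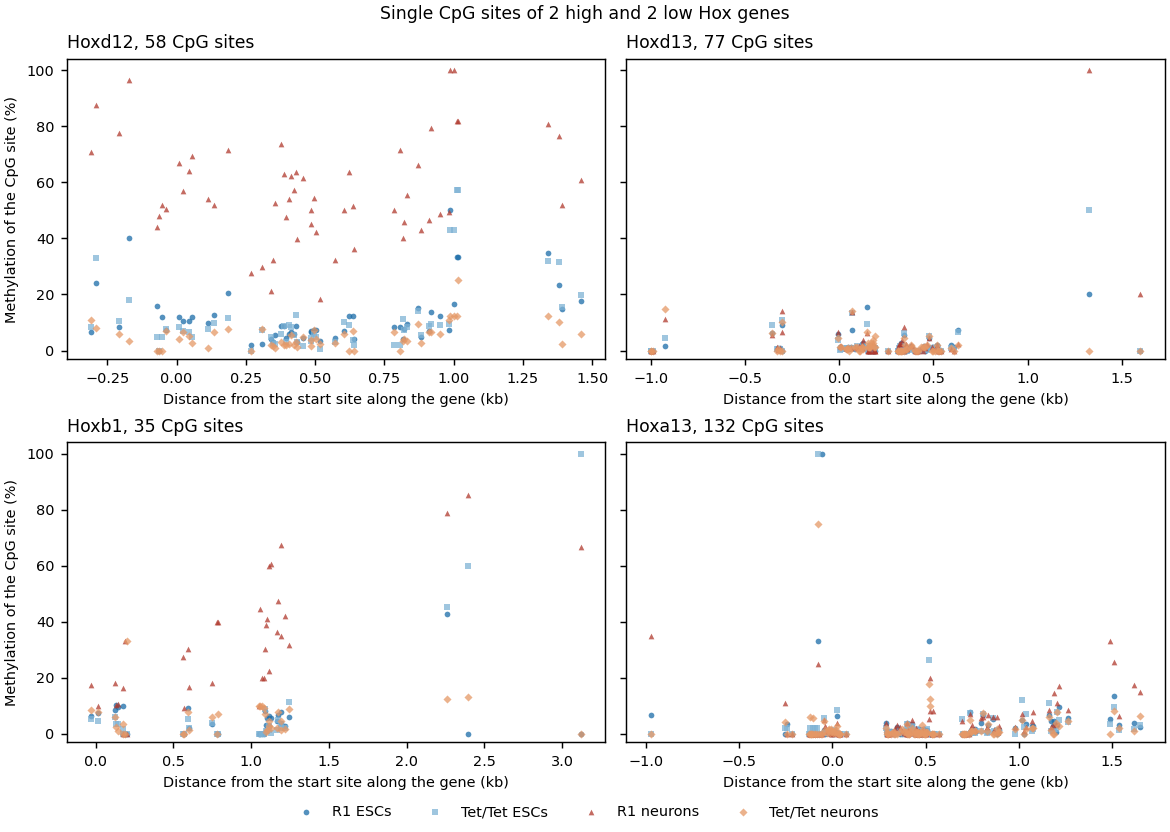
Methylation (percent) of single CpG sites listed in all 4 libraries against the distance in kb from the gene start, for Hoxd12 (58 sites), Hoxd13 (77), Hoxb1 (35) and Hoxa13 (132), 1 point per site and library. R1 neurons lie above the other libraries at all 58 sites of Hoxd12 and at 31 of 35 in Hoxb1, while most sites of Hoxd13 and Hoxa13 lie near 0 in each library.

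Hoxb1 (chr11:96365752-96368256, plus strand), which specifies the fourth rhombomere of the hindbrain, was next. Its 35 sites averaged 4.95% and 8.07% in R1 and Tet/Tet ESCs, then 32.5% (SD over sites 21.6) and 5.58% in R1 and Tet/Tet neurons. R1 neurons were highest at 31 of the 35 sites. An island of 16 sites in the gene was at 3.999%, 2.54%, 37.97% and 5.27%, and the 26 coding sites at 4.35%, 2.42%, 29.6% and 5.00%. Its direct neighbour Hoxb2 (chr11:96350525-96354012), which acts in the hindbrain as well, was the lowest Hox gene in R1 neurons, with 3.74%, 2.56%, 2.14% and 2.14% over 101 sites. Hoxb2 was also the only Hox gene whose lowest level was in R1 neurons.

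Hoxb13 (chr11:96194316-96197447, plus strand), the posterior gene of the prostate and tail, lies apart from the rest of its cluster and had no shared site in a CpG island. Its 48 sites averaged 11.4% and 9.40% in R1 and Tet/Tet ESCs, then 31.5% (SD over sites 31.7) and 5.34% in R1 and Tet/Tet neurons. Its 17 coding sites were at 19.8%, 15.5%, 48.5% and 2.67%. The sites were split in R1 neurons, with 39.6% of them under 10% and 35.4% at 50% or more. Among the position 13 genes Hoxb13 stood apart, since Hoxa13 was at 3.19% in R1 neurons, Hoxd13 at 3.37% and Hoxc13 at 8.35%.

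Hoxd4 and Hoxc4, which pattern the neck vertebrae, were the remaining genes above 25%. Hoxd4 averaged 13.8% and 11.9% in R1 and Tet/Tet ESCs and 29.7% and 4.03% in R1 and Tet/Tet neurons over 111 sites, all of which also lie within the long Hoxd3 transcript unit. Hoxc4 averaged 9.12%, 8.82%, 26.7% and 4.66% over 89 sites. In both the coding sequence was lower than the whole gene in R1 neurons, with 16.6% over 31 sites in Hoxd4 and 8.15% over 33 sites in Hoxc4. Counting coding sites only, 3 genes remained at 25% or more in R1 neurons, namely Hoxd12, Hoxb13 and Hoxb1. The other position 4 genes, paralogues of Hoxd4 and Hoxc4, were low in R1 neurons, with 4.36% in Hoxb4 and 6.62% in Hoxa4.

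Next came Hoxd3 at 22.0%, Hoxc10 at 20.3% and Hoxa6 at 20.003% in R1 neurons. Hoxd3, a gene of the first neck vertebra, averaged 11.6% and 8.62% in R1 and Tet/Tet ESCs, with 4.28% in Tet/Tet neurons (323 sites). Hoxc10, known for lumbar motor neurons, had 7.99%, 8.20% and 5.00% in these libraries over 75 sites. Hoxa6 was the highest gene of its cluster, with 6.78%, 5.59%, 20.003% and 5.19% in the 4 libraries over 52 sites. The remaining 30 genes were under 20% in R1 neurons. At the low end, Hoxa13, which patterns digits and the urogenital tract, averaged 2.61%, 2.29%, 3.19% and 1.97% over 132 sites. Hoxc11 was the lowest of its cluster with 3.83%, 2.20%, 4.86% and 2.88% over 76 sites.

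Levels were next set out by paralogue position. Position 12 was highest in R1 neurons at 32.6% (119 sites), and it was at 7.81% and 7.18% in R1 and Tet/Tet ESCs, with 3.95% in Tet/Tet neurons. This value came from Hoxd12, since Hoxc12 was at 9.21% in R1 neurons. Position 1 followed with 5.64%, 5.24%, 17.6% and 4.99%, and here too 1 gene was high, with Hoxb1 at 32.5% and Hoxd1 at 12.3%. Position 2, that of Hoxa2 and Hoxb2 of the hindbrain and the second branchial arch, was lowest in R1 neurons with 4.08%, 2.90%, 2.74% and 2.39%, while position 11 was lowest in the other libraries. Position 8 was at 4.63% and position 11 at 4.83% in R1 neurons, and their members lay within 3.3 and 2.9 percentage points of each other. Between members of a position the range in R1 neurons was widest at position 12 (48.1 points), position 13 (28.3 points) and position 4 (25.4 points).

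Anterior, central and posterior positions did not form a gradient in R1 neurons. Positions 1 to 4 were at 7.47% and 5.76% in R1 and Tet/Tet ESCs and 14.5% and 4.18% in R1 and Tet/Tet neurons. Positions 5 to 8 were at 6.24%, 4.96%, 9.69% and 3.58%, and positions 9 to 13 at 4.54%, 4.03%, 10.0% and 3.11%. In both ESC libraries and in Tet/Tet neurons the 3 means descended from anterior to posterior, with no replicate error to set this against. Over the 38 genes the Pearson correlation of position with the level in R1 neurons was -0.0346 and Spearman's rho -0.195. The genes share libraries and 19 of the 38 share sites with a neighbour, so they are not independent points.

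**Figure D5:**
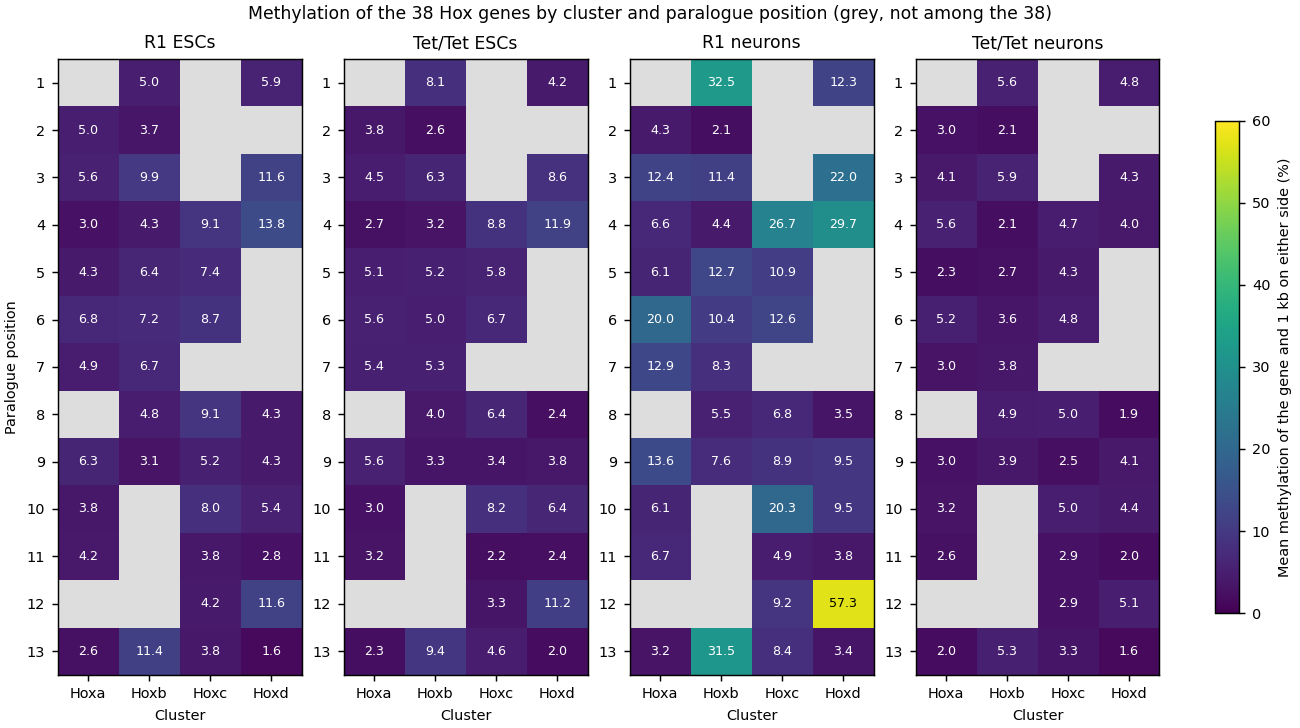
Mean methylation (percent, colour and number) of the 38 Hox genes with 1 kb on either side, by paralogue position (rows 1 to 13) and cluster (columns), for each library. Cells in grey hold no gene of the 38. In R1 neurons the highest cells are Hoxd12 at 57.3% and Hoxb1 at 32.5%, and no position is at 25% or more in all of its genes.

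The first comparison asks what the Tet/Tet line changes in ESCs. No Hox gene differed by 10 percentage points or more between Tet/Tet and R1 ESCs in either direction, while 1.65% of all protein-coding genes were higher by that much and 0.276% lower. A fall of 10 points was not possible for the 34 Hox genes that were under 10% in R1 ESCs. The median difference over the 38 genes was -1.06 points, and over all genes it was 0.592 points. Lower levels in Tet/Tet ESCs were found for 30 of 38 Hox genes and for 36.3% of all genes. They were also found for 19 of 30 homeobox genes outside the clusters and for 26 of 41 Hox cofactors and regulators. A lean to lower levels was thus not particular to Hox genes. Within 1 kb of the gene starts Hox genes were split almost evenly, with 15 of 29 lower and 14 higher. This was still a larger share lower than the 35.7% of all genes. The differences of the 4 clusters were -0.853 points in Hoxa, -1.37 in Hoxb, -1.20 in Hoxc and -1.52 in Hoxd.

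The Hox genes with the largest differences in ESCs were within 4 points. Hoxb3, an anterior hindbrain gene, was at 9.89% and 6.25% in R1 and Tet/Tet ESCs, with 11.4% and 5.95% in R1 and Tet/Tet neurons. Hoxd3 differed by -2.96 points and Hoxc8, a gene of brachial motor neurons, by -2.69 points. In the other direction Hoxb1 differed by 3.11 points, Hoxd10, a gene of lumbar motor neurons, by 0.938 points and Hoxa5 by 0.822 points. The sites of Hoxb1 included one at 0% in R1 and 60% in Tet/Tet ESCs and one at 0% and 100%. Over its coding sites Hoxb1 differed by -1.93 points, and the median over its sites was 3.37% and 2.08% in R1 and Tet/Tet ESCs. Hoxd10 was at 5.42% and 6.36% in R1 and Tet/Tet ESCs and at 9.53% and 4.38% in R1 and Tet/Tet neurons. Hoxa5, which acts in the lung, was at 4.28%, 5.10%, 6.14% and 2.31% in the same order. The levels of R1 and Tet/Tet ESCs over the 38 genes had a Pearson correlation of 0.901 and a Spearman's rho of 0.897, which describes genes measured in the same 2 libraries.

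In 1 kb tiles with at least 5 shared sites, 3 of 201 cluster tiles were higher by 10 points or more in Tet/Tet ESCs and 4 were lower, against 15.4% and 7.53% of 80233 tiles of the genome. The largest of these was 1 kb of Hoxc6 at chr15:103011001-103012000, with 24.0% and 5.80% in R1 and Tet/Tet ESCs over 11 sites. A tile in the stretch that Hoxd3 and Hoxd4 share was lower (42.9% and 28.6%, 7 sites), and a tile in Hoxd12 was higher (24.8% and 36.6%, 7 sites). These tiles rest on 5 to 11 sites of unknown depth.

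The second comparison, of Tet/Tet with R1 neurons, had the largest differences. Tet/Tet neurons were lower by 10 points or more at 9 of 38 Hox genes, against 80.0% of all protein-coding genes, and higher at 0 Hox genes and 0% of all genes. Such a fall was not possible for the 21 Hox genes that were under 10% in R1 neurons, where the median of all genes was 35.2%. The 9 genes were Hoxd12, Hoxb1, Hoxb13, Hoxd4, Hoxc4, Hoxd3, Hoxc10, Hoxa6 and Hoxa9, which were also the 9 highest genes in R1 neurons. The median difference was -5.45 points over the Hox genes and -27.5 points over all genes. With sites outside CpG islands only, 18 of the 24 genes that kept 20 sites were lower by 10 points or more, against 98.7% of all genes, with medians of -16.1 points and -64.9 points. Within 1 kb of the gene start, 4 of 29 were, a share near the 14.3% of all genes.

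Hoxd12 differed by -52.2 points, Hoxb1 by -26.9 points and Hoxb13 by -26.1 points. Hoxa9, a posterior gene known from leukaemia, was at 13.6% in R1 and 3.04% in Tet/Tet neurons, a difference of -10.5 points. Hoxb2 was at 2.14% in both libraries and was the only gene without a lower value in Tet/Tet neurons, with a difference of 0.00109 points. Hoxb8 differed by -0.614 points, with 4.84%, 4.01%, 5.52% and 4.91% in the 4 libraries. Hoxa4 differed by -0.999 points, with 2.97%, 2.72%, 6.62% and 5.62%. In Tet/Tet neurons the 38 genes spanned only 1.57% to 5.95%, against 2.14% to 57.3% in R1 neurons. Over the clusters the differences were -6.44 points in Hoxa, -13.8 in Hoxb, -10.9 in Hoxc and -9.74 in Hoxd.

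The sites that were methylated in R1 neurons show the same in each cluster. There were 454 cluster sites at 50% or more in R1 neurons, chosen on that level, and their means were 29.7% and 27.5% in R1 and Tet/Tet ESCs and 72.2% and 11.5% in R1 and Tet/Tet neurons. By cluster the Tet/Tet neuron means of these sites were 11.7% in Hoxa, 10.96% in Hoxb, 11.7% in Hoxc and 12.0% in Hoxd. The same choice over the genome gave 863155 sites with 45.7%, 48.0%, 90.9% and 17.5%. Of 201 cluster tiles, 20 were at 50% or more in R1 neurons, against 72.2% of tiles in the genome, and 0 were so in any of the other 3 libraries. The highest tile in Tet/Tet neurons was at 24.2%, within Hoxb3 (chr11:96333001-96334000, 13 sites), where R1 neurons were at 16.96%.

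The third comparison, of R1 neurons with R1 ESCs, also spans the sequencing projects. R1 neurons were higher by 10 points or more at 8 of 38 Hox genes, against 71.9% of all genes, and lower at 0, against 0.00837% of all genes. The 8 genes were Hoxd12, Hoxb1, Hoxb13, Hoxc4, Hoxd4, Hoxa6, Hoxc10 and Hoxd3. The median difference over Hox genes was 3.78 points. Hoxd12 differed by 45.7 points, Hoxb1 by 27.5 points and Hoxb13 by 20.007 points. Lower values in R1 neurons were found for 136 of the 11954 protein-coding genes. They were found for 4 Hox genes, Hoxc8 (-2.21 points), Hoxb2 (-1.60 points), Hoxd8 (-0.772 points) and Hoxa2 (-0.665 points). Hoxc8 was at 9.06% and 6.37% in R1 and Tet/Tet ESCs and 6.85% and 4.99% in R1 and Tet/Tet neurons. Hoxd8 was at 4.27%, 2.45%, 3.50% and 1.93%, and Hoxa2, which sets the identity of the second branchial arch, at 4.97%, 3.78%, 4.30% and 3.03%.

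The level in R1 ESCs and that in R1 neurons had a Pearson correlation of 0.716 and a Spearman's rho of 0.782 over the 38 genes. The 5 genes at 25% or more in R1 neurons included Hoxd4, the highest in R1 ESCs at 13.8%, but also Hoxb1 at 4.95%. The share of a gene's sites in CpG islands had a Pearson correlation of -0.561 with the level in R1 neurons and a Spearman's rho of -0.589. These describe genes of the same libraries whose sites partly coincide.

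The fourth comparison, of Tet/Tet neurons with Tet/Tet ESCs, gave small differences. No Hox gene was higher or lower by 10 points or more, while 0.0920% of all genes were higher and 40.8% lower. The 36 Hox genes under 10% in Tet/Tet ESCs could not be lower by that much. The median was -0.967 points and the range -7.90 to 2.91 points. Hoxd4 had the largest difference, from 11.9% to 4.03%, followed by Hoxd12 with -6.16 points and Hoxd3 with -4.34 points. Hoxa4 differed by 2.91 points, Hoxb8 by 0.898 points and Hoxc11 by 0.674 points. Tet/Tet neurons held the lowest of the 4 levels for 29 of the 38 genes.

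Between the genes, the longest stretch was the 72.0 kb from Hoxb13 to Hoxb9, which was also the most methylated in R1 neurons. Its 266 sites averaged 15.6% and 15.8% in R1 and Tet/Tet ESCs and 40.1% and 6.15% in R1 and Tet/Tet neurons. A tile in it at chr11:96231001-96232000 reached 95.4% in R1 neurons (7 sites), with 45.5%, 46.8% and 11.9% in the other libraries. The stretch from Hoxc12 to Hoxc11, which holds Hotair, was at 15.0%, 12.4%, 36.1% and 4.32% (90 sites). By contrast the stretch from Hoxd3 to Hoxd1 was at 8.71%, 4.91%, 10.97% and 4.64% (103 sites), and that from Hoxa11 to Hoxa13 at 6.33%, 5.06%, 11.2% and 3.85% (108 sites). In R1 neurons and in Tet/Tet ESCs each stretch of Hoxa and Hoxd was below each of Hoxb and Hoxc. Single stretches broke this order in R1 ESCs and in Tet/Tet neurons. Over all such sites of a cluster it held in R1 ESCs as well, with 6.33% in Hoxa, 8.34% in Hoxd, 14.5% in Hoxb and 13.3% in Hoxc.

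Of 35 non-coding genes of the clusters with at least 10 shared sites, 29 had a higher level in R1 neurons than in R1 ESCs and 6 a lower one. Among the 11954 protein-coding genes 11818 were higher and 136 lower, so a higher level was not particular to these non-coding genes. The 6 lower non-coding genes included Gm27868, at 33.4% and 24.7% in R1 and Tet/Tet ESCs and 14.9% and 4.04% in R1 and Tet/Tet neurons (14 sites). They also included Mir615 (7.73% in R1 ESCs, 7.17% in R1 neurons). Hotair, a long non-coding RNA gene known for its link to Polycomb, was at 16.8% and 14.3% in R1 and Tet/Tet ESCs and 37.2% and 4.37% in R1 and Tet/Tet neurons over 34 sites. Gm53, a long non-coding RNA gene between Hoxb13 and Hoxb9, was at 11.5%, 11.02%, 42.4% and 6.47% over 99 sites. Haglr, between Hoxd3 and Hoxd1, was at 7.71%, 5.12%, 12.3% and 4.94% over 207 sites. Hoxaas3, on the opposite strand and overlapping Hoxa3 through Hoxa7, was at 5.17%, 4.34%, 12.3% and 4.18% over 428 sites. The values are given once per CpG site and not by strand, so sites of overlapping genes count for each of them.

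The clusters also hold the miR-196 and miR-10 genes, whose products repress Hox transcripts. The mature sequences (RefSeq, GRCm38) are shown because the 3 miR-196 genes share a seed, bases 2 to 8 in capitals, and differed in methylation. Mir196a-1 (chr11:96265164-96265265) and Mir196a-2 (chr15:102973350-102973434) give the same product, and Mir196b (chr6:52230081-52230165) gives a near copy.
miR-196a-5p: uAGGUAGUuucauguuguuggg
miR-196b-5p: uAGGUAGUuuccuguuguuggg
miR-10b-5p: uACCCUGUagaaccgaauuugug
With 1 kb on either side, Mir196a-1 was at 32.7% and 32.6% in R1 and Tet/Tet ESCs and 64.4% and 9.31% in R1 and Tet/Tet neurons over 17 sites. Mir196a-2 was at 10.3%, 6.22%, 19.2% and 6.67% over 15 sites, and Mir196b at 5.41%, 3.42%, 9.004% and 2.95% over 63 sites. The same mature miRNA is thus encoded at a locus that was high in R1 neurons and at one that was not. Mir10b, in Hoxd4, was at 16.9%, 11.4%, 56.0% and 5.32% over 11 sites.

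Genes that work with the Hox genes were compared by the same measure. Of 46 cofactors and regulators, 41 had at least 20 shared sites, with medians of 8.69% and 8.61% in R1 and Tet/Tet ESCs and 21.8% and 5.54% in R1 and Tet/Tet neurons. In R1 neurons 18 of the 41 were at 25% or more. Tet/Tet neurons were lower than R1 neurons by 10 points or more at 26 of them. The Polycomb genes ranged from 3.56% (Bmi1) to 39.5% (Cbx7) in R1 neurons. Retinoic acid receptor genes, which act upstream of Hox genes, were at 36.8% (Rara), 44.7% (Rarb) and 29.0% (Rarg) in R1 neurons. The homeobox genes outside the clusters were more like the Hox genes, with 30 of 32 measured and medians of 5.30%, 4.90%, 9.17% and 3.17% in the 4 libraries. Of these 30, 1 was at 25% or more in R1 neurons (Lmx1a, 37.5%), and 7 were lower by 10 points or more in Tet/Tet neurons.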

How the data were processed

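RRBS was done on ESCs and neurons of the R1 and Tet/Tet lines, with 1 library per condition. According to the labels and the methods, the authors trimmed reads with Trim Galore 0.6.4, checked them with FastQC 0.11.8, aligned them to mm10 with Bismark 0.19.0 and extracted calls with MethylDackel 0.3.0. They deposited the methylation of each CpG as a percent, without read totals, so depth is unknown, no coverage minimum could be applied and sites were weighted equally.

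From these values the unweighted mean over CpGs listed in all 4 libraries was computed for each GENCODE M21 gene with 1 kb on either side (at least 20 such sites), and for clusters, positions, stretches between genes and 1 kb tiles (at least 5 sites). Files listed 2311939 to 5298360 sites. CpG islands were runs longer than 200 bp whose GC content reached 50% and whose CpG ratio (observed to expected) exceeded 0.6. Differences of at least 10 percentage points were counted beside the share of 11954 protein-coding genes past the same size. With 1 library per condition no test was possible. Scripts used Python 3.11.15, numpy 2.4.6, scipy 1.17.1, numba 0.67.0 and matplotlib 3.10.9, and the counting was tested on simulated data.

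The members and gene lists were chosen with earlier results of these data known. Values in all 4 libraries were given for the 3 highest and 3 lowest genes in R1 neurons, the 3 largest differences in each direction of each comparison, and the highest and lowest gene of each cluster. Further genes, tiles and non-coding genes named were chosen after their values were seen. Alternatives were sites listed in only the 2 libraries compared, 1 site per 100 bp, sites in MspI fragments of 40 to 220 bp, islands left out, genes with at least 10 or 40 sites, no flanks, the gene start alone, the median and a difference of 20 points. The values of 1 cofactor gene and the island stretch of 1 cluster are not reported here.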

Additional observations from a re-analysis of the deposited data

Results flagged for a closer look

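In 9 of the 38 Hox genes Tet/Tet minus R1 was of one sign in ESCs and of the other in neurons. Such a change was less common in Hox genes than in all protein-coding genes. Of the 11954 protein-coding genes, 7614 were higher in Tet/Tet ESCs and 11783 were lower in Tet/Tet neurons, so most genes were both. With 1 library per condition the difference between cell types was not tested. The value given is the difference in neurons minus that in ESCs. It was -30.0 percentage points for Hoxb1, which was higher in Tet/Tet ESCs by 3.11 points and lower in Tet/Tet neurons (-26.9 points). In ESCs the sign for Hoxb1 depended on the sites, with -1.93 points over its coding sites and -1.88 points within 1 kb of its start. For Hoxc10 the value was -15.5 points and for Hoxa7 -10.4 points. It was -6.09 points for Hoxd10, -5.81 points for Hoxc13, -4.65 points for Hoxa5, -3.91 points for Hoxb9 and -2.19 points for Hoxd13. By the mean over the gene and 1 kb on either side, these 8 genes were higher in Tet/Tet ESCs and lower in Tet/Tet neurons. Hoxb2 went the other way with 1.18 points, of which the neurons gave 0.00109 points.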

How the results depend on the processing

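Each condition had 1 library, so no replicate could be left out. No paired analysis was possible because each condition had 1 library and no result came from a test. The differences depended most on the mix of island and other sites. Tet/Tet neurons were lower than R1 neurons by 10 points or more at 9 genes, at 14 with sites listed in the 2 libraries compared, at 18 with islands left out (24 genes measured), at 4 within 1 kb of the start (29 measured) and at 5 with 20 points. The cluster differences for Hoxa, Hoxb, Hoxc and Hoxd were -12.5, -22.6, -17.8 and -17.6 points with 1 site per 100 bp and -18.7, -24.7, -19.6 and -22.0 without islands, and as medians over sites -4.21 in Hoxb, -4.00 in Hoxc and -2.60 in Hoxd. R1 neurons were higher than R1 ESCs at 8 genes, at 15 without islands (24 measured, against 97.9% of all genes), at 4 at the start (29 measured, against 14%), at 5 by the median and at 3 with 20 points. Their cluster differences were 13.05, 16.5, 12.8 and 14.6 points without islands, 11.7 in Hoxd with 1 site per 100 bp and 2.63 in Hoxb by the median. Tet/Tet neurons were lower than Tet/Tet ESCs at 0 genes, at 1 without islands (Hoxd4) and at 1 without flanks (Hoxb13), and the Hoxa difference changed sign to 0.0524 points by the median. Fewer genes and sites enter without islands, at the start and with 1 site per 100 bp. Otherwise the cause was not tested. In the other 132 alternatives the count stayed within 1.5 times or the cluster difference moved by less than 5 points. This rule does not allow for the number of genes measured. With 1 site per 100 bp, 12 of 18 genes were lower in Tet/Tet than in R1 neurons, and 8 of 18 were higher in R1 neurons than in R1 ESCs. Both are larger shares than the 9 and 8 of all 38 genes. The unknown depth limits each single site.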
